A study of Mus musculus with 27 samples.

Results

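The subject of these results is the way in which the effect of losing Batf3 on the RNA of pancreatic islets differed between 6 and 8 weeks of age in NOD mice. Islets of Langerhans are the endocrine cell clusters of the pancreas, and NOD/ShiLt is an inbred strain in which they come under autoimmune attack. The 4 groups that carry the comparison are NOD mice with intact genes at 6 weeks (3 mice) and at 8 weeks (6 mice), and mice labelled NOD.Batf3-/- (Batf3ko from here on) at 6 weeks (3 mice) and at 8 weeks (6 mice). That is 18 of the 27 arrays of the series. The other 9 arrays, from NOD.Rag1-/- mice (Rag1ko, without the recombinase that T and B cells need to mature; 3 at 6 weeks and 6 at 8 weeks), entered the estimate of spread and are quoted as a reference. All mice were untreated females of the NOD/ShiLt background from a specific pathogen-free facility, and per the series text they are biological replicates. How the Batf3 allele was made, and how many backcrosses it went through, is not stated in the labels or the series text.

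Batf3 is a transcription factor of the AP-1 family. Without it the dendritic cells that cross-present antigen to CD8 T cells do not develop, and in NOD mice such cells carry islet antigen to the pancreatic lymph node. T cells that enter the islet release interferon-gamma, which acts on islet cells and macrophages to induce the chemokines Cxcl9 and Cxcl10, guanylate-binding proteins and the antigen presentation machinery. Other gene programs matter here too: immediate early genes, transcription factors that cells switch on within minutes of a stimulus or of stress, and glucocorticoid-induced genes, which follow the level of circulating stress hormone.

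For each of the 19938 genes an effect is the mean log2 value of the Batf3ko mice minus that of the NOD mice of the same age, and the change of the effect is the 8-week effect minus the 6-week effect. A change above 0 means that Batf3ko stood higher against NOD at 8 weeks than at 6 weeks. Effects and changes are given ± SE from 1 limma fit, and a gene is called where the p-value adjusted over all genes is under 0.05. The typical precision was set by the smaller 6-week groups: the median SE was 0.148 for the 6-week effect, 0.105 for the 8-week effect and 0.182 for the change. Array medians spanned 5.29 to 5.34 in the younger mice and 4.92 to 5.05 in the older. An offset of that kind cancels in the change where both genotypes share it, but a level at one age cannot be set against a level at the other. Batf3 itself did not differ at either age, with an effect of 0.08 ± 0.17 at 6 weeks and of -0.22 ± 0.12 at 8 weeks (adjusted p = 0.93 and 0.28). Whether its probe set lies in the deleted part of the gene was not analysed here, so that it is no check of the genotype.

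Of the 36 list scores 5 separated the ages without overlap (acinar, duct, ER stress, neutrophil and Reg family), and 5 set the 6-week NOD mice above all other mice (immediate early, glucocorticoid, circadian clock, ER stress and neutrophil). The immediate early score, the mean log2 value of 15 genes such as Fos and Atf3, was 9.71, 9.63 and 9.75 in the 6-week NOD mice and lay between 7.54 and 9.01 in the other 24 mice, the 6-week Rag1ko mice (8.10, 7.54 and 8.07) included. The score of 26 acinar genes, which mark the exocrine pancreas around the islets, lay between 11.92 and 12.34 in the 9 mice of 6 weeks and between 6.27 and 9.59 in the 18 mice of 8 weeks. The beta cell score (21 genes) lay between 9.89 and 10.37 over all the NOD and Batf3ko mice, and Ins2, an insulin gene chosen after its values were seen, between 12.46 and 13.22. The clock score was 7.40 to 7.52 in the 6-week NOD mice and at most 7.27 elsewhere, and the ER stress score was 9.65 to 9.74 against at most 9.49. Of the 21 ER stress genes 2 were called lower in Batf3ko at 6 weeks, and their median 6-week effect was -0.004, so that the list did not shift as a whole. The lists also share genes: Atf3 is in the immediate early and ER stress lists, Dusp1 in the immediate early and glucocorticoid lists, and Per1 in the glucocorticoid and clock lists. The neutrophil score was 3.80 to 3.85 against at most 3.78, a gap within the spread of the groups. The acinar score thus differed between the 6-week and the 8-week arrays in each genotype, where age and normalization cannot be told apart. The same limit holds for each comparison of scores across ages in this paragraph. Among the mice of 6 weeks alone, the high immediate early score was that of NOD, with at most 8.61 in Batf3ko and 8.10 in Rag1ko.

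The Batf3ko effect differed between the ages in 377 genes, 1.89% of those tested. In 209 of them (1.05%) the change was above 0 and in 168 (0.843%) below. The effects themselves were called in 194 genes at 6 weeks, with 135 (0.677%) lower and 59 (0.296%) higher in Batf3ko, and in 1527 genes at 8 weeks, with 882 (4.42%) lower and 645 (3.24%) higher. The 3 ways in which an effect can differ were unequally filled. In 74 called genes it grew, in 118 it shrank and in 185 it reversed, where a reversal needs opposite signs with each effect more than 2 SE from 0. All 74 growing genes were within 2 SE of 0 at 6 weeks, so that no effect that was already present at 6 weeks passed the test for growing further. Of the 118 shrinking genes, 116 were within 2 SE of 0 at 8 weeks. The other 2, Zfp36, which destabilises mRNAs, and the zinc finger gene Zfp637, both chosen after their values were seen, were smaller at 8 weeks but still more than 2 SE from 0, and their calls for the change were lost in 15 and 12 of the 18 runs that left out 1 mouse. Changes of more than 1 log2 unit were found in 74 genes upward, of which 48 shrank, 21 reversed and 5 grew, and in 21 genes downward, of which 14 grew, 6 reversed and 1 shrank. Over all genes the median effect was 0.001 at 6 weeks and 0.045 at 8 weeks, and the median change was 0.029.

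**Figure D1:**
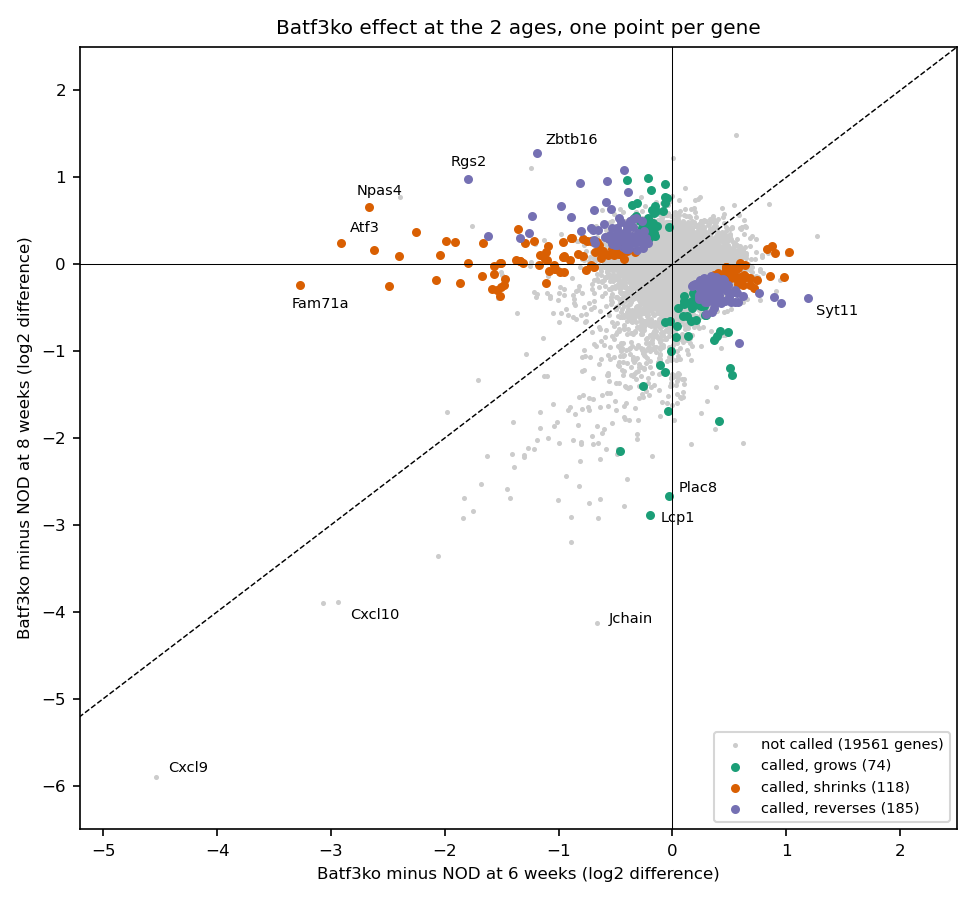
Batf3ko minus NOD at 6 weeks (horizontal, log2 difference) against the same at 8 weeks (vertical), 1 point per gene; the dashed line marks equal effects and the colours the class of the 377 called genes. Shrinking genes lie along the left arm of the horizontal axis, growing genes along the vertical axis, and Cxcl9 (-4.54 and -5.90) lies far down beside the line without being called.

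The number of called genes rested on the 6-week mice. It was 75 without Batf3ko 6-week mouse 3, 102 without Batf3ko 6-week mouse 2, 170 without NOD 6-week mouse 2 and 227 without NOD 6-week mouse 3. Each of the 377 genes kept the sign of its change in all 18 runs that left out 1 mouse. With the immediate early score as a covariate no gene was called (limma, 2560 genes with an unadjusted p under 0.05), and 368 of the 377 genes kept their sign. That score did not overlap between the 6-week NOD mice and all others, so that the covariate and this group can hardly be told apart.

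Genes that interferon-gamma induces had large deficits in Batf3ko at both ages, Cxcl9 first among them. Cxcl9, a chemokine that draws CXCR3-bearing T cells and is induced almost entirely by interferon-gamma, read 8.70, 8.46 and 9.13 in the 6-week NOD mice and 4.37, 4.62 and 3.68 in the 6-week Batf3ko mice. In the 8-week NOD mice Cxcl9 ran from 7.77 over a median of 9.35 to 10.67, and in the 8-week Batf3ko mice from 3.13 over 3.64 to 3.86. Every NOD mouse was above every Batf3ko mouse at both ages, and the Batf3ko mice lay with the Rag1ko mice, which read 4.85, 4.86 and 3.88 at 6 weeks. The deficit was 23.2-fold at 6 weeks (-4.54 ± 0.47, adjusted p = 2.9e-06) and 59.6-fold at 8 weeks (-5.90 ± 0.34, adjusted p = 7.7e-12). The change of -1.36 ± 0.58 did not pass the test (adjusted p = 0.20).

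The promoter of Cxcl9 is shown because this gene carries the largest effect at each age, with matches to the core of the interferon-stimulated response element (GAAANNGAA, either strand) in capitals. It is the RefSeq window of GRCm38.p6 at chr5:92328030-92328329 on the minus strand around the start of the gene, written 5′ to 3′ along the gene.
Cxcl9: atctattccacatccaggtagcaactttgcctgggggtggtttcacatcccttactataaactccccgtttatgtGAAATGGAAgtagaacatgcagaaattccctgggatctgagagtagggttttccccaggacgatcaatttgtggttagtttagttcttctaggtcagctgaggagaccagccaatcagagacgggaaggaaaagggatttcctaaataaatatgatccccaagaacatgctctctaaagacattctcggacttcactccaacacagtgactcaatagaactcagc
The same letters were found in the promoters of 5 of 5 interferon-gamma induced GTPases with an entry (Gbp2b, Gbp3, Gbp5, Gbp7 and Irgm1), in those of 4 of 11 interferon-gamma response genes, and in 7.94% of the promoters of the 15614 measured genes with one. Among the growing genes with a change below 0 they were found in 6 of 34 (17.6%), and among the shrinking genes with a change above 0 in 3 of 61 (4.92%). A match is a description of the window and not a site of binding. Where a gene has several promoters listed, only the first was searched, here and for the other motifs.

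Other genes that interferon-gamma induces had deficits at both ages, with more of them called at 8 weeks. Of the 10 GTPases measured, which restrict intracellular microbes, 6 were called lower at 6 weeks and 10 at 8 weeks. Over all genes 0.677% were called lower at 6 weeks and 4.42% at 8 weeks, where the groups are larger. All 10 had a larger deficit at 8 weeks, with a median effect of -1.29 at 6 weeks and -2.16 at 8 weeks. Among all 19938 genes 4415 had an effect of the same sign at both ages that was larger at 8 weeks. For the change 0 of 10 were called, with estimates from -1.30 to -0.50. Iigp1, an immunity-related GTPase, had an 8.39-fold deficit at 6 weeks and a 15-fold deficit at 8 weeks, with a change of -0.83 ± 0.53 (adjusted p = 0.40). Gbp4, a guanylate-binding protein, read 5.98, 6.45 and 7.30 in the 6-week NOD mice and 4.46, 4.56 and 4.54 in the 6-week Batf3ko mice. At 8 weeks Gbp4 ran from 6.04 to 8.96 (median 7.56) in NOD and from 4.03 to 4.75 (median 4.28) in Batf3ko. The groups did not overlap at either age, and the change was -1.30 ± 0.56 (adjusted p = 0.21). Cxcl10, another ligand of CXCR3, had effects of -2.94 ± 0.40 and -3.89 ± 0.28 and a change of -0.95 ± 0.49 (adjusted p = 0.29).

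The SE of the change was larger in these genes, with a median of 0.430 over the GTPases against 0.182 over all genes, and the NOD mice of 8 weeks differed widely from each other. Their GTPase scores were 6.20, 6.52, 5.41, 5.98, 7.32 and 7.46, against 4.09 to 4.26 in the 8-week Batf3ko mice. The median change of the list was -0.85 with all mice, -0.39 with mice 1 to 3 of each 8-week group, -1.28 with mice 4 to 6 and -0.35 without NOD mice 5 and 6 (the last run was chosen after seeing the data). NOD mice 5 and 6 had the highest scores, so that a smaller growth of the deficit without them follows from the choice of mice. The split of the 8-week mice puts both of them in mice 4 to 6. The interferon-gamma response list (15 genes) had 3 members called lower at 6 weeks, 11 at 8 weeks and 0 for the change, and in 4 of its genes the estimate of the change was above 0. The interferon-gamma pathway list (15 genes) had 2, 8 and 0. MHC class II presentation (11 genes) had 4, 9 and 0, with H2-Ab1, which encodes a class II beta chain, at -1.45 ± 0.36 and then -2.59 ± 0.25 and a change of -1.13 ± 0.44 (adjusted p = 0.16). In the MHC class I list (14 genes) 2 were called at 6 weeks, 12 at 8 weeks and 2 for the change, namely Tapbp and Tapbpl, which help load peptides on class I molecules and were chosen after their values were seen. Their effects went from 0.23 to -0.47 and from 0.09 to -0.60 (adjusted p of the change = 0.039 and 0.037). Each lost its call in 9 of the 18 runs without 1 mouse (p up to 0.14 and 0.12). The list had 0 calls with only the 18 NOD and Batf3ko arrays, after quantile normalization, with the acinar score as a covariate and with 8-week mice 1 to 3 or 4 to 6 alone. It also had 0 with the immediate early score as a covariate, as did all genes.

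**Figure D2:**
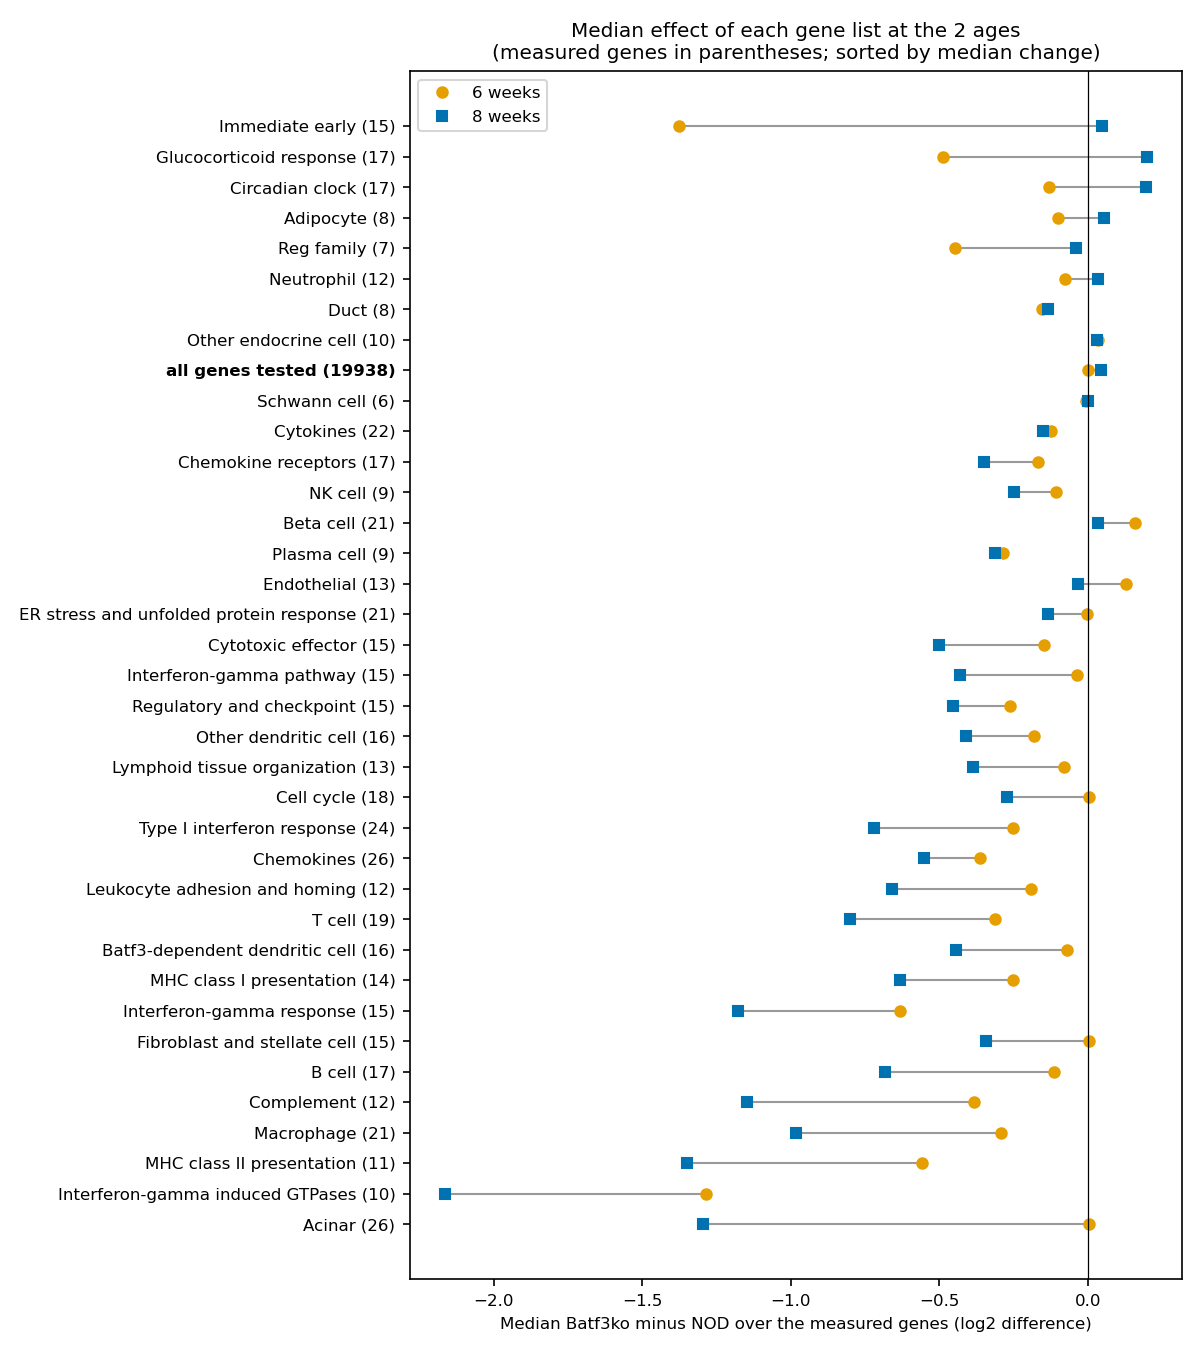
Median Batf3ko minus NOD effect (log2 difference) of the measured genes of each list at 6 weeks (circles) and 8 weeks (squares), sorted by the median change, with the number of measured genes in parentheses. The immediate early list goes from -1.38 to 0.05 and the GTPases from -1.29 to -2.16, while all genes tested stay at 0.00 and 0.04.

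Several leukocyte genes had an effect that was called at 8 weeks and lay near 0 at 6 weeks. Lcp1, the actin-bundling protein L-plastin of blood cells, read 5.89, 5.71 and 6.72 in the 6-week NOD mice and 6.22, 6.02 and 5.49 in the 6-week Batf3ko mice. At 8 weeks Lcp1 ran from 5.65 over 7.20 to 8.46 in NOD and from 3.80 over 4.47 to 4.87 in Batf3ko. The genotypes overlapped at 6 weeks and were apart at 8 weeks. The effect went from -0.20 ± 0.45 to -2.89 ± 0.32, a 7.42-fold deficit, and the change was -2.70 ± 0.55 (adjusted p = 0.012). In such bulk samples fewer cells of a type and less RNA per cell cannot be told apart.

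Plac8, a gene of myeloid and lymphoid cells, was flat at 6 weeks, at 3.78, 3.93 and 3.84 in NOD and 4.0, 3.93 and 3.52 in Batf3ko. At 8 weeks Plac8 ran from 4.83 over 6.23 to 7.70 in NOD and from 2.99 over 3.66 to 4.39 in Batf3ko. The groups were apart at 8 weeks alone, and the change was -2.64 ± 0.60 (adjusted p = 0.023). Its call was lost without NOD 6-week mouse 2 (adjusted p = 0.051), Batf3ko 6-week mouse 2 (0.079) or Batf3ko 6-week mouse 3 (0.056). Itgb2, the beta chain of the leukocyte integrins, went from -0.04 ± 0.35 to -1.69 ± 0.25 (change -1.65 ± 0.42, adjusted p = 0.041). The macrophage genes Ms4a7, a membrane protein, and Cx3cr1, the fractalkine receptor, had changes of -1.23 ± 0.29 and -0.99 ± 0.25 (adjusted p = 0.028 and 0.040). Acp5, the tartrate-resistant phosphatase of osteoclasts and some macrophages, went from -0.46 ± 0.36 to -2.15 ± 0.26 (change -1.69 ± 0.44, adjusted p = 0.045). Cxcl16, a chemokine that macrophages and dendritic cells carry on their surface, went from -0.26 ± 0.25 to -1.40 ± 0.18 (change -1.15 ± 0.31, adjusted p = 0.048).

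Another 4 genes, which many cell types express, had a deficit at 8 weeks alone. S100a6, a calcium-binding protein, had effects of 0.41 ± 0.42 and -1.80 ± 0.30 and a change of -2.21 ± 0.52 (adjusted p = 0.028). Anxa2, which binds membranes and actin, went from 0.50 ± 0.27 to -1.20 ± 0.19 (adjusted p of the change = 0.0070). Fam111a, a protease that limits viral replication, went from 0.53 ± 0.30 to -1.28 ± 0.21 (adjusted p = 0.012). Tubb5, a beta-tubulin, went from 0.37 ± 0.19 to -0.87 ± 0.14 (adjusted p = 0.0070). In all 4 the 6-week estimate was above 0 and the 8-week estimate below 0. The lipid desaturase Scd1, the G protein subunit Gngt2 and the aminotransferase Kyat3 completed the growing genes among the 15 lowest changes, at -1.19, -1.18 and -1.27.

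These genes depended unequally on single mice. Lcp1, Anxa2, Fam111a and Tubb5 were called in each of the 18 runs that left out 1 mouse, with adjusted p of at most 0.043, 0.029, 0.049 and 0.035. The call was lost in 4 of the 18 runs for S100a6 (p up to 0.078) and Ms4a7 (0.096), in 11 for Cx3cr1 (0.13), in 12 for Itgb2 (0.097), in 13 for Acp5 (0.13) and in 16 for Cxcl16 (0.13). It was lost in 4 runs for Scd1 (p up to 0.13), in 14 for Gngt2 (0.15) and in 15 for Kyat3 (0.15). In the macrophage list as a whole (21 genes) 0 were called lower at 6 weeks, 17 were lower at 8 weeks and 2 were called for the change, with a median effect of -0.29 and then -0.98. That list's count of calls for the change was 0 with mice 1 to 3 of each 8-week group, 0 without NOD mice 5 and 6 of 8 weeks and 5 without NOD 8-week mouse 3. Among the 8-week NOD mice, mice 5 and 6 had the highest macrophage scores and mouse 3 the lowest. The direction in which these counts moved thus follows from the mice left out. Of the 19 T cell genes 0 were called at 6 weeks, 13 were lower at 8 weeks and 0 were called for the change, with a median effect of -0.31 and then -0.80. The share of all genes called lower was 0.677% at 6 weeks and 4.42% at 8 weeks. The T cell and macrophage scores did not overlap between the genotypes at 6 weeks. This was not particular to them: many other list scores were also apart at 6 weeks, neutrophil and ER stress among them, while others such as B cell overlapped. No test was made of these separations of 3 against 3 mice. The T cell score was 4.18, 4.29 and 4.31 in NOD and 3.97, 3.97 and 3.98 in Batf3ko, and the macrophage score was 5.40 to 5.55 and 5.05 to 5.23.

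**Figure D3:**
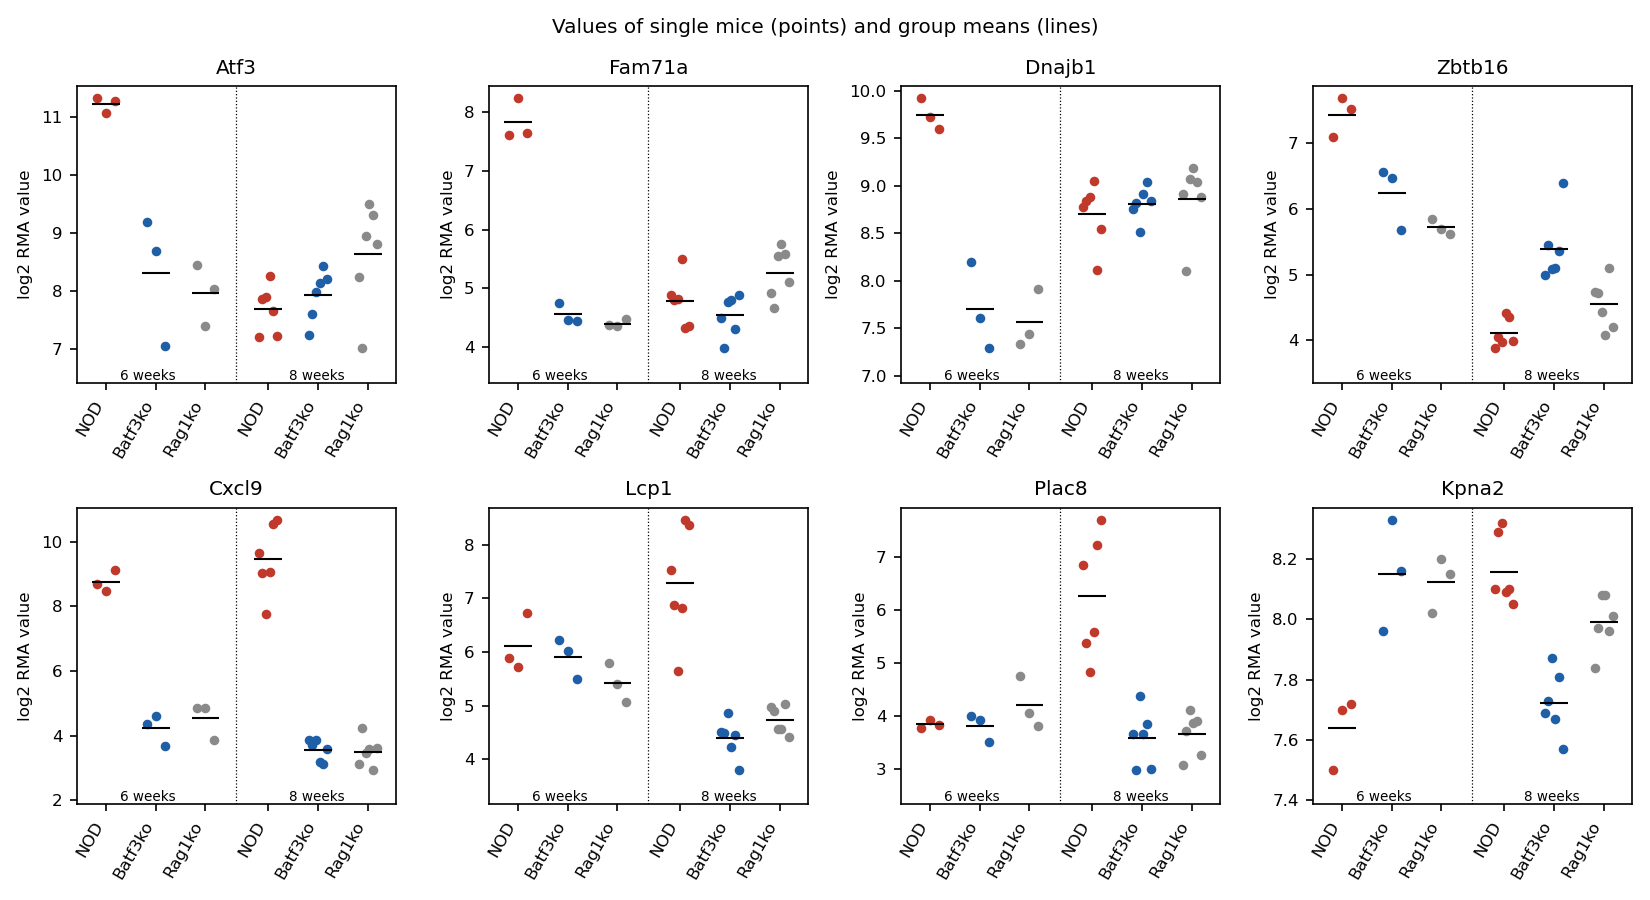
Log2 values of single mice (points) and group means (lines) for 8 genes, by genotype at 6 weeks (left of the dotted line) and 8 weeks (right). Atf3, Fam71a and Dnajb1 are high in the 6-week NOD mice alone, Cxcl9 is high in NOD at both ages, Lcp1 and Plac8 separate at 8 weeks, and Zbtb16 and Kpna2 change sides.

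Few genes with a new excess in Batf3ko at 8 weeks had large changes: 33 called genes grew upward, 5 of them by more than 1 log2 unit. Sox4, a transcription factor of pancreatic progenitors and islet cells, read 6.78, 6.42 and 6.48 in the 6-week NOD mice and 6.40, 6.17 and 5.90 in the 6-week Batf3ko mice. At 8 weeks Sox4 ran from 5.06 over 5.52 to 6.00 in NOD and from 6.30 over 6.52 to 6.78 in Batf3ko. At 6 weeks all 3 Batf3ko mice were below all 3 NOD mice and at 8 weeks all 6 were above all 6. The change was 1.37 ± 0.34 (adjusted p = 0.035), and it was lost in 6 of the 18 runs without 1 mouse (p up to 0.12). Sult1d1, a sulfotransferase that glucocorticoids induce, went from -0.21 ± 0.21 to 0.99 ± 0.15 (change 1.20 ± 0.26, adjusted p = 0.017). Abca1, which exports cholesterol, went from -0.06 ± 0.16 to 0.78 ± 0.12 (adjusted p = 0.031), and Banp, a nuclear matrix protein, from -0.15 ± 0.12 to 0.67 ± 0.09 (adjusted p = 0.0059). Pex11a, which divides peroxisomes, Cys1, a cilium gene, Mdm1, a centriole protein, and Sh3pxd2a, a podosome scaffold, had changes of 1.04, 1.04, 1.02 and 0.99. Of these the call was lost in 10 of the 18 runs for Pex11a (p up to 0.12), in 4 for Cys1 (0.13), in 10 for Mdm1 (0.11) and in 17 for Sh3pxd2a (0.11). It was lost in 5 runs for Abca1 (0.093), in 1 for Sult1d1 (0.070) and in 0 for Banp.

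Most of the large upward changes were deficits at 6 weeks with an 8-week effect near 0, with immediate early genes among them. Of the 15 measured, 13 were lower in Batf3ko at 6 weeks, 0 were called in either direction at 8 weeks, and 12 were called for the change, all of them shrinking. Their median effect was -1.38 at 6 weeks and 0.05 at 8 weeks. Npas4, an activity-dependent transcription factor of neurons and beta cells, read 7.98, 7.76 and 7.89 in the 6-week NOD mice and 5.30, 5.35 and 4.99 in the 6-week Batf3ko mice. At 8 weeks Npas4 ran from 5.18 over 6.36 to 7.05 in NOD and from 6.17 over 6.97 to 7.41 in Batf3ko. The 6-week groups were far apart, the 8-week groups overlapped, and the change of 3.33 ± 0.57 (adjusted p = 0.0029) was the highest of all genes.

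Atf3, a stress-induced partner of the AP-1 factors, read 11.31, 11.06 and 11.27 in the 6-week NOD mice and 9.19, 8.68 and 7.05 in the 6-week Batf3ko mice. At 8 weeks Atf3 ran from 7.20 over 7.75 to 8.26 in NOD and from 7.24 over 8.05 to 8.43 in Batf3ko. Its 6-week Rag1ko values were 8.45, 7.39 and 8.03, so that the 6-week NOD mice stood above both other genotypes. The 7.51-fold deficit at 6 weeks (-2.91 ± 0.48, adjusted p = 0.0012) was followed by no called effect at 8 weeks (0.25 ± 0.34, adjusted p = 0.70). The orphan nuclear receptor Nr4a1 went from -2.25 ± 0.41 to 0.37 ± 0.29, and the AP-1 subunit Fosb from -1.99 ± 0.40 to 0.27 ± 0.28 (adjusted p of the change = 0.0068 and 0.017). Ier2, a nuclear immediate early protein, and Fos, an AP-1 subunit chosen after its values were seen, had changes of 1.91 ± 0.40 and 1.77 ± 0.38 (adjusted p = 0.014 and 0.017). Fosb, Ier2 and Fos each lost the call without Batf3ko 6-week mouse 3 (adjusted p = 0.081, 0.071 and 0.075). The list members without a call were Egr2, Ier3 and Fosl1, with changes of 0.78, 0.52 and 0.38, chosen after their values were seen.

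The same pattern held for genes beside that list. Gem, a GTPase that restrains calcium channels and insulin release, went from -2.62 ± 0.30 to 0.16 ± 0.21 (change 2.78 ± 0.36, adjusted p = 0.00014). The Krüppel-like factor Klf6 went from -2.07 ± 0.24 to -0.19 ± 0.17 (adjusted p = 0.00098). Cxcl2, a chemokine for neutrophils, went from -2.49 ± 0.36 to -0.25 ± 0.25 (adjusted p = 0.0095), the reverse of the course of Cxcl16. Polg2, a subunit of the mitochondrial DNA polymerase, and Btbd19 had changes of 2.49 ± 0.35 and 1.81 ± 0.24 (adjusted p = 0.00022 and 0.00015). In all 80 shrinking genes with a change above 0 the 6-week NOD mean was also above the 6-week Rag1ko mean. That it was above the 6-week Batf3ko mean follows from the definition of the class. These genes were picked partly for a high 6-week NOD mean, and the share over all genes was not examined. The immediate early list had 4 members called without Batf3ko 6-week mouse 3, 8 without Batf3ko 6-week mouse 2 and 2 with mice 1 to 3 of each 8-week group. The fit with the immediate early score as a covariate cannot judge this list, because the score is the mean of its own genes. In that fit 0 of all 19938 genes were called.

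Some shrinking genes encode chaperones, which refold damaged proteins. No list of such genes was examined, and Hspa1a is a member of the immediate early list. Dnajb1, a co-chaperone of the HSP70 family, read 9.92, 9.72 and 9.60 in the 6-week NOD mice and 8.20, 7.61 and 7.29 in the 6-week Batf3ko mice. At 8 weeks Dnajb1 ran from 8.11 over 8.81 to 9.05 in NOD and from 8.51 over 8.83 to 9.04 in Batf3ko. The groups were apart at 6 weeks and overlapped at 8 weeks, with a change of 2.16 ± 0.29 (adjusted p = 0.00017). Hspa1a, the inducible HSP70, and Hsph1, an HSP110 exchange factor, both chosen after their values were seen, went from -1.87 ± 0.17 to -0.22 ± 0.12 and from -1.34 ± 0.17 to 0.04 ± 0.12 (adjusted p = 0.00014 and 0.00059). Hspa1a has a near-identical copy, Hspa1b, and the array may not tell them apart. Ddit3, the stress factor CHOP, went from -1.16 ± 0.14 to 0.10 ± 0.10 (adjusted p = 0.00014), but of the 21 genes of the ER stress list only Ddit3, Atf3 and Chac1 were called, and its median change was -0.17. Dnajb1, Hspa1a, Hsph1 and Ddit3 were called in each of the 18 runs without 1 mouse, with adjusted p of at most 0.0019, 0.00093, 0.0043 and 0.0013.

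Promoters of 3 shrinking genes are shown for the motifs that stress and immediate early genes are known for. In Hspa1a (chr17:34972107-34972406, minus strand) and Hsph1 (chr5:149636287-149636586, minus strand) capitals mark the core of the heat shock element, GAANNTTC. In Dusp1 (chr17:26508423-26508722, minus strand), an immediate early phosphatase whose effect went from -1.52 ± 0.28 to 0.01 ± 0.20 (adjusted p of the change = 0.022), they mark the cyclic AMP response element, TGACGTCA. All windows are from RefSeq (GRCm38.p6).
Hspa1a: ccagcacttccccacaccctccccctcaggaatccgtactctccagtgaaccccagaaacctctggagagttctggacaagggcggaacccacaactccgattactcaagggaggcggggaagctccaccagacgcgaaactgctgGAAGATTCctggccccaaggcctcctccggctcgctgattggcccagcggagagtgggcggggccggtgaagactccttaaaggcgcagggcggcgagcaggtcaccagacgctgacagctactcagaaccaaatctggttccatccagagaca
Hsph1: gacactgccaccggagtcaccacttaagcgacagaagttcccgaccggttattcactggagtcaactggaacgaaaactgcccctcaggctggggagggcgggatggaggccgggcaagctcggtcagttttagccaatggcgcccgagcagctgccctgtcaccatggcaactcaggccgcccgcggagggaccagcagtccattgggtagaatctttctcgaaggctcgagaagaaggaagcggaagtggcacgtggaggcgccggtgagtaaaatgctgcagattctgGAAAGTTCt
Dusp1: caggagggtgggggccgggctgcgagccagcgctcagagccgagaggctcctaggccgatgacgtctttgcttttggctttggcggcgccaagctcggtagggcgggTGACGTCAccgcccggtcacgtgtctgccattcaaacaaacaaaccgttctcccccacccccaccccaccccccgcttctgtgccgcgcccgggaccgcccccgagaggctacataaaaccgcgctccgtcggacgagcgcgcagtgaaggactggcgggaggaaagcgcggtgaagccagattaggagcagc
The heat shock core, read on either strand, occurred in 8 of the 61 promoters of shrinking genes with a change above 0 (13.1%) and in 6.78% of all 15614. The cyclic AMP response element occurred in 6 of 61 (9.84%) and in 2.49% of all. In Hsph1 the match begins at base 292 of 300, behind the start of the gene. The Hsph1 window is the first of 2 listed for that gene. No test was made of these shares, and in the windows printed the capitals overlap with none of the other 3 motifs searched.

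Atf3 and Fam71a, the 2 genes that follow Batf3 most closely on its chromosome, were both in this class. Fam71a read 7.61, 8.23 and 7.64 in the 6-week NOD mice and 4.75, 4.47 and 4.45 in the 6-week Batf3ko mice. At 8 weeks Fam71a ran from 4.33 over 4.81 to 5.50 in NOD and from 3.98 over 4.63 to 4.88 in Batf3ko. Its 6-week Rag1ko values, 4.37, 4.36 and 4.48, were as low as those of Batf3ko. The 9.66-fold deficit at 6 weeks (-3.27 ± 0.27) was not seen at 8 weeks (-0.24 ± 0.19), and its change of 3.03 ± 0.33 had an adjusted p of 2.2e-05. Among the 85 measured genes next to Batf3 (50 before and 35 after it in gene order) 3 were called upward and 1 downward. Over all genes 1.05% were called upward and 0.843% downward for the change, and the difference in shares was not tested. Beside Atf3 and Fam71a the called neighbours were Vmn1r1, a vomeronasal receptor 50 genes away (0.59, adjusted p = 0.020), and Aida, a gene of axis formation 39 genes away (-0.85, adjusted p = 0.0034). The median change of the 85 genes was 0.012, against 0.029 over all genes.

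**Figure D4:**
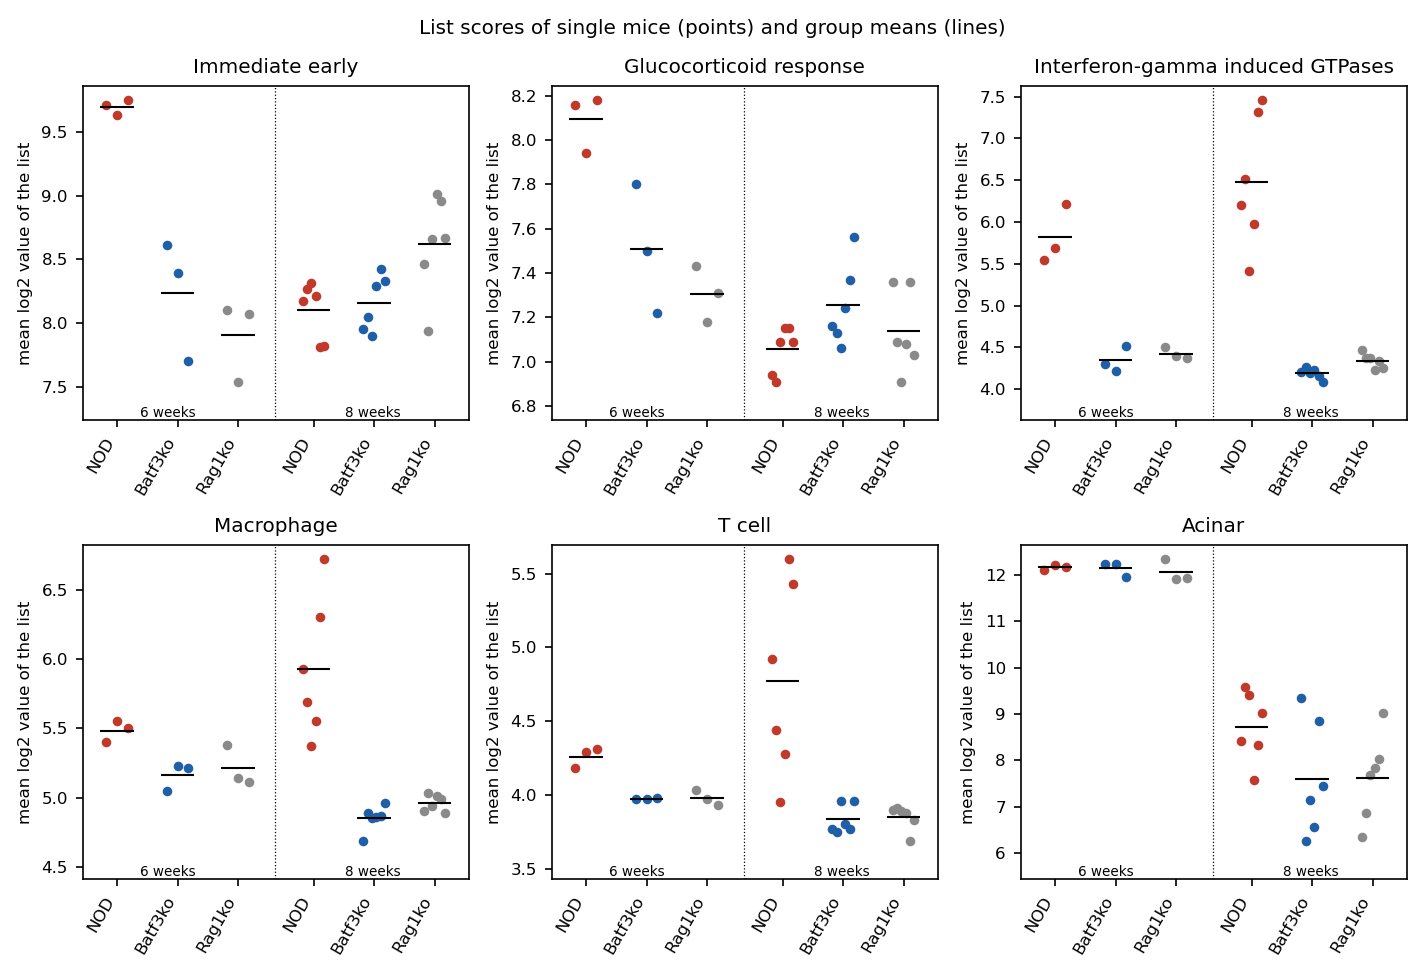
Mean log2 value of 6 gene lists in each mouse (points) with group means (lines), by genotype at 6 and 8 weeks. The immediate early score is 9.63 to 9.75 in the 6-week NOD mice and at most 9.01 elsewhere, the GTPase, macrophage and T cell scores spread upward in the 8-week NOD mice, and the acinar score separates the ages.

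Effects that changed sign numbered 185, with a median change of 0.76 upward (96 genes) and -0.64 downward (89 genes). The size of this class depends on the rule and the mice: where each effect must pass its own test 7 genes reversed, 240 shrank and 130 grew, and with 8-week mice 4 to 6 alone 80 reversed, 34 shrank and 103 grew. Glucocorticoid-induced and clock genes were among those that went from a deficit to an excess. Zbtb16, a zinc finger repressor that glucocorticoids induce, read 7.09, 7.67 and 7.51 in the 6-week NOD mice and 6.56, 6.46 and 5.68 in the 6-week Batf3ko mice. At 8 weeks Zbtb16 ran from 3.88 over 4.03 to 4.41 in NOD and from 4.99 over 5.23 to 6.39 in Batf3ko. Batf3ko lay below NOD in every mouse at 6 weeks and above it in every mouse at 8 weeks. The effect went from a 2.28-fold deficit (-1.19 ± 0.28, adjusted p = 0.032) to a 2.43-fold excess (1.28 ± 0.20, adjusted p = 0.00015), a change of 2.47 ± 0.34 (adjusted p = 0.00017).

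Fkbp5, a co-chaperone that dampens the glucocorticoid receptor and is among its best known targets, read 8.02, 7.40 and 8.05 in the 6-week NOD mice and 7.43, 7.32 and 7.45 in the 6-week Batf3ko mice. At 8 weeks Fkbp5 ran from 6.13 over 6.34 to 7.0 in NOD and from 7.25 over 7.46 to 7.89 in Batf3ko. The groups overlapped at 6 weeks, while at 8 weeks every Batf3ko mouse was above every NOD mouse. The change was 1.51 ± 0.26 (adjusted p = 0.0024). In the glucocorticoid list (17 genes) 7 were called for the change, all upward, of which 4 reversed, 2 shrank and 1 grew, and the median effect went from -0.49 to 0.20. Beside Zbtb16, Fkbp5, Per1, Dusp1 and Sult1d1 these were Errfi1, an inhibitor of growth factor receptors, and the Krüppel-like factor Klf9, both chosen after their values were seen, with changes of 1.48 and 0.85. The call was lost in 3 of the 18 runs without 1 mouse for Errfi1 (p up to 0.097), in 2 for Dusp1 (0.095), in 1 for Klf9 (0.063) and in 0 for Zbtb16, Fkbp5 and Per1. The immediate early genes share Dusp1 with this list, and the glucocorticoid score was highest in the same 3 mice of 6 weeks (8.16, 7.94 and 8.18 in NOD against 7.80, 7.50 and 7.22 in Batf3ko). The part of those 3 mice's immediate early level in the glucocorticoid result was not tested. In the fit with the immediate early score as a covariate the median change of the 17 genes was 0.23. There 0 of all 19938 genes were called, these 17 included, so that the count says nothing particular of this list.

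Per1 and Cry2 encode repressors of the circadian clock. Per1 read 9.21, 8.84 and 8.97 in the 6-week NOD mice and 8.53, 7.52 and 7.19 in the 6-week Batf3ko mice. At 8 weeks Per1 ran from 7.21 over 7.46 to 7.57 in NOD and from 7.64 over 7.76 to 8.01 in Batf3ko. All Batf3ko mice lay below NOD at 6 weeks and above it at 8 weeks, and the effect went from -1.26 ± 0.21 to 0.35 ± 0.15 (adjusted p of the change = 0.0011). Cry2 went from -0.81 ± 0.21 to 0.93 ± 0.15 (change 1.74 ± 0.26, adjusted p = 0.00039), also without overlap at either age. Nfil3, a repressor of clock output genes, shrank from -1.56 ± 0.25 to -0.11 ± 0.18 (adjusted p = 0.015), and the other 14 of the 17 clock genes were not called, Nr1d1, the nuclear receptor REV-ERB-alpha, among them with a change of 0.81 ± 0.26 (adjusted p = 0.098). Neither the labels nor the series text state the time of day at which islets were taken.

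The first of 2 listed promoters of Per1 (chr11:69098699-69098998, plus strand, RefSeq, GRCm38.p6) is shown with its E-box, CACGTG, in capitals. The E-box is the element through which the clock drives its own repressors.
Per1: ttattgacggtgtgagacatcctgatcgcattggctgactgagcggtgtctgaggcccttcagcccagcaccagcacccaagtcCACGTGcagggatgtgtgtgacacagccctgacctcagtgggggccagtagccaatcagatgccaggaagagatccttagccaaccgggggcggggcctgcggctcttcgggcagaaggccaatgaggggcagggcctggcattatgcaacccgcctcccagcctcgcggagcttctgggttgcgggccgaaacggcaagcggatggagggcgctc
The E-box was found in 8.38% of all promoters, in 5 of 15 from the clock list and in 3 of 14 from the glucocorticoid list (Dusp1, Fkbp5 and Per1). Among the reversing genes with a change above 0 it was found in 7 of 72 (9.72%), close to the share of all promoters. The 5 clock genes with a match were Bhlhe41, Ciart, Cry1, Per1 and Tef, of which only Per1 was called for the change.

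There were 7 genes that passed their own test at both ages with opposite signs: Zbtb16, Trp53inp1, Kpna2, Cpeb2, Dedd2, Ihh and Thbs1, of which the last 4 were chosen after their values were seen. Of the 34 genes called at both ages, 27 had the same sign. Trp53inp1, a p53-induced autophagy gene, went from -1.23 ± 0.19 to 0.56 ± 0.13 (change 1.79 ± 0.23, adjusted p = 0.00014). Cpeb2, a translation regulator, Thbs1, a matrix glycoprotein, Ihh, a hedgehog ligand, and Dedd2, a death effector protein, had changes of 1.05, 1.08, 0.76 and 0.72. Other large reversals were those of Rgs2, which turns off G protein signals (-1.80 ± 0.45 to 0.99 ± 0.32, adjusted p of the change = 0.0097), and Nfkbiz, a nuclear regulator of NF-kappaB (-1.62 ± 0.19 to 0.33 ± 0.13, adjusted p = 5.8e-05). Chac1, which degrades glutathione, went from -0.98 ± 0.27 to 0.67 ± 0.19 (adjusted p = 0.011), and Rabepk, a Rab9 effector, from -1.34 ± 0.18 to 0.30 ± 0.13 (adjusted p = 0.00016). The call was lost for Rgs2 without Batf3ko 6-week mouse 2 or 3 (adjusted p = 0.053 and 0.056) and for Chac1 without mouse 3 (0.056).

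In the opposite direction 89 genes went from an excess in Batf3ko to a deficit. Kpna2, an importin that carries proteins into the nucleus, read 7.50, 7.70 and 7.72 in the 6-week NOD mice and 7.96, 8.33 and 8.16 in the 6-week Batf3ko mice. At 8 weeks Kpna2 ran from 8.05 over 8.10 to 8.32 in NOD and from 7.57 over 7.71 to 7.87 in Batf3ko. All Batf3ko mice were above NOD at 6 weeks and below it at 8 weeks. Both effects were small, a 1.43-fold excess (0.51 ± 0.11) and a 1.35-fold deficit (-0.43 ± 0.07), but precise, and the change of -0.95 ± 0.13 had an adjusted p of 0.00017. Syt11, a vesicle synaptotagmin, read 6.06, 5.67 and 5.50 in the 6-week NOD mice and 6.57, 6.81 and 7.41 in the 6-week Batf3ko mice. At 8 weeks Syt11 ran from 5.96 to 6.82 in NOD and from 5.95 to 6.29 in Batf3ko, with medians of 6.51 and 6.03. The 8-week groups overlapped, and the change was -1.58 ± 0.24 (adjusted p = 0.00071). Ffar2, a short-chain fatty acid receptor of beta cells, went from 0.76 ± 0.17 to -0.33 ± 0.12 (adjusted p = 0.0066). Cmbl, a hydrolase, went from 0.57 ± 0.16 to -0.44 ± 0.11 (adjusted p = 0.0066). The spindle gene Haus1, Praf2, a membrane trafficking protein, Pls3, an actin bundler related to Lcp1, and Arf2, a vesicle GTPase, had changes of -1.27, -0.98, -0.98 and -0.90, with the call lost in 3, 3, 1 and 5 of the 18 runs without 1 mouse. Of 13 endothelial genes Pecam1, an adhesion molecule, and Kdr, the VEGF receptor, were called, from 0.54 to -0.32 and from 0.26 to -0.34 (adjusted p of the change = 0.047 and 0.044), and each lost its call in 12 of the 18 runs without 1 mouse.

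The last class, an excess in Batf3ko at 6 weeks that shrank by 8 weeks, held 38 genes with a median effect of 0.57 and then -0.12. Gstm4, a glutathione transferase, read 5.51, 5.40 and 5.34 in the 6-week NOD mice and 6.18, 6.59 and 6.43 in the 6-week Batf3ko mice. At 8 weeks Gstm4 ran from 5.62 over 5.88 to 6.52 in NOD and from 5.74 over 5.83 to 6.15 in Batf3ko. The groups were apart at 6 weeks and overlapped at 8 weeks, with a change of -1.12 ± 0.22 (adjusted p = 0.011). Gtpbp8, a mitochondrial GTPase, and Commd6, an NF-kappaB modulator, had changes of -1.0 ± 0.20 and -0.92 ± 0.20 (adjusted p = 0.012 and 0.018). Usp46, a deubiquitinase, went from 1.03 ± 0.19 to 0.14 ± 0.13 (adjusted p = 0.043). Tnfrsf18, the receptor GITR of regulatory T cells, was called here with effects of 0.68 ± 0.18 and -0.24 ± 0.12 (adjusted p = 0.025), the single member of the 15 regulatory and checkpoint genes with a call for the change. Cnot9 of the deadenylase complex, Mlst8 of the mTOR complexes and the zinc finger gene Zbtb25 had changes of -0.99, -0.85 and -0.86. The call was lost in 12 of the 18 runs without 1 mouse for Usp46 (p up to 0.14), in 13 for Zbtb25 (0.17), in 4 each for Cnot9 (0.13), Mlst8 (0.097) and Tnfrsf18 (0.089), in 3 for Commd6 (0.079), in 2 for Gtpbp8 (0.066) and in 1 for Gstm4 (0.050). Not every gene with a large excess at 6 weeks was called for the change: Zfp617, a zinc finger gene (1.27 ± 0.29), and Gpr119, a lipid receptor of beta cells (1.01 ± 0.20), were not (adjusted p = 0.15 and 0.061).

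Several immune genes had large estimates of the change that did not pass the test. Jchain, which joins antibody chains in plasma cells, had a change of -3.46 ± 1.01, the lowest of all genes, with an adjusted p of 0.071, and 8-week NOD values from 2.97 over 7.0 to 8.87. Cd3g, a T cell receptor subunit, had a change of -2.02 ± 0.65 (adjusted p = 0.098), and Ccl19, a chemokine of lymphoid tissue, one of -2.27 ± 0.72 (adjusted p = 0.093). The macrophage genes Lyz2, a lysozyme, Aif1, an actin-binding protein, and C1qc, a complement subunit, had changes of -2.31 ± 0.69, -1.45 ± 0.41 and -1.32 ± 0.39 (adjusted p = 0.074, 0.059 and 0.071). Without NOD 8-week mouse 3, which had the lowest T cell score of its group (3.95 against 4.28 to 5.60), Jchain, Cd3g, Ccl19, Lyz2, Aif1 and C1qc were called (adjusted p = 0.0011, 0.029, 0.0013, 0.020, 0.013 and 0.036). Aif1 was also called without NOD 8-week mouse 4 (0.041) and Lyz2 without Batf3ko 6-week mouse 1 (0.039). NOD 8-week mouse 3 also had the lowest macrophage and plasma cell scores of its group (5.37 and 4.83). Leaving out the mouse with the lowest scores enlarges such deficits by construction, so that the calls without it are no further support. The genes of the Batf3-dependent dendritic cell itself (16 measured) had 0 calls at 6 weeks, 8 lower at 8 weeks and 0 for the change, with medians of -0.07 and -0.45. Flt3, the receptor for its growth factor, went from -0.24 ± 0.24 to -1.06 ± 0.17 (adjusted p of the change = 0.13).

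The 26 acinar genes had a median effect of 0.00 at 6 weeks and -1.30 at 8 weeks, with 0 called for the change, and the scores of the 8-week mice ranged widely within a genotype (7.58 to 9.59 in NOD and 6.27 to 9.35 in Batf3ko). Sycn, a zymogen granule protein, had a change of -1.62 ± 0.99 (adjusted p = 0.38). With the acinar score as a covariate 195 genes were called, 186 of them among the 377. The 21 beta cell genes had medians of 0.16 and 0.04 and 0 calls at either age or for the change, Pdx1, the beta cell transcription factor, included (change -0.40 ± 0.17, adjusted p = 0.19).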

How the data were processed

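Islet RNA was biotin-labelled with the Affymetrix sense-strand assay and run on whole-transcript arrays, 1 per mouse, per the labels' protocols. The deposited table holds log2 values of 30177 probe sets, made by the authors with RMA in Arraystar per the series text; the submitters' processing notes also name Affymetrix Expression Console and mm9, with no version named. Values ran from 0.70 to 13.85, 0 columns lacked a sample, and the ages have different distributions, so age and normalization cannot be told apart.

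The 21789 probe sets with 1 gene symbol (1621 had several, 6767 none) gave 19938 genes, the brightest probe set standing for the 999 genes with several. Genes were fitted with limma 3.58.1 in R 4.3.3: 6 group means over 27 arrays, 21 residual degrees of freedom (5.524 prior), p-values adjusted by Benjamini and Hochberg's method over all genes. The change is (Batf3ko minus NOD at 8 weeks) minus (Batf3ko minus NOD at 6 weeks). The fit was tested on simulated data. The number of arrays limits the precision.

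The question, the 36 gene lists and the genes were chosen with earlier results of these data known, so no list is independent evidence. Named genes are the 15 lowest and 15 highest changes among called genes above the median gene (5.26) in at least 1 group, up to 8 per class and direction, up to 4 per list by size of change, the 5 largest 6-week effects each way, and Batf3; unnamed predictions, RIKEN clones, small RNAs, odorant and vomeronasal receptors and receptor segments were left out. Same-numbered mice of 1 age did not deviate together (correlations -0.102 to 0.07), so numbers were not used as pairs. Alternatives tried were other arrays, normalizations, filters, probe set rules, variance models, covariates and class rules, and each mouse left out.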

Additional observations from a re-analysis of the deposited data

Results flagged for a closer look

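The Batf3ko effect differed between 6 and 8 weeks in 377 genes, by the test of that difference itself. Single mice stood apart from the rest of their group in 3 of the 132 groups of values examined (36 list scores and 30 lead genes in the 2 groups of 6 mice), where chance alone marks about 1 group in 20. Batf3ko 8-week mouse 1 had the lowest plasma cell score of its group, 4.59, with the next at 4.75. Batf3ko 8-week mouse 6 had the highest Zbtb16 value, 6.39, with the next at 5.45. Batf3ko 8-week mouse 3 had the lowest Btbd19 value, 4.11, with the next at 4.50. Zbtb16 and Btbd19 were called in each run that left out 1 mouse, with adjusted p of at most 0.0019 and 0.0013.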

How the results depend on the processing

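The 6-week groups hold 3 mice each, which limits these results. The count of 377 changed genes was 182 with only the 18 NOD and Batf3ko arrays (62 lower and 120 higher; 26 growing, 63 shrinking and 93 reversing; 128 genes called at 6 weeks), and 650 with array weights per group (317 and 333; 156, 192 and 302; 325 at 6 weeks). It was 195 with the acinar score as covariate (72 and 123; 25, 77 and 93; 895 called at 8 weeks) and 0 with the immediate early score as covariate (0 lower, 0 higher and 0 in each class; 2560 with an unadjusted p under 0.05; 11 genes called at 6 weeks). It was 148 with 8-week mice 1 to 3 (78 and 70; 22, 32 and 94; 428 at 8 weeks) and 217 with 8-week mice 4 to 6 (101 and 116; 103 growing, 34 shrinking and 80 reversing; 912 at 8 weeks). After quantile normalization 284 genes were called, of which 217 were among the 377, and 79 of the 284 had a change below 0. With dim genes left out 306 called genes had a change below 0, and 128 called genes grew. Without NOD 8-week mice 5 and 6, a choice made after seeing the data, 46 genes grew and 724 were called at 8 weeks. Reversal by sign alone gave 10 growing, 29 shrinking and 338 reversing genes, and reversal where each effect passes its own test gave 130, 240 and 7. Same-numbered mice did not deviate together, and with the replicate block the count was 262, with 110 lower, 242 of them among the 377; the numbers name the mice only.

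Leaving out 1 mouse at a time gave 75 to 436 changed genes, 23 to 234 lower and 52 to 224 higher, with 9 to 156 growing, 28 to 174 shrinking and 38 to 200 reversing, and 63 to 308 genes called at 6 weeks and 1101 to 1561 at 8 weeks. The lowest counts for the change and at 6 weeks came without Batf3ko 6-week mouse 3. Direction was kept by all 377 genes, or by the 298 of them left after the filter on dim genes, in every setting but the immediate early covariate, where 368 kept it. Under that covariate the changes of Fosb, Ier2, Fos, Dusp1, Zfp36 and Jun, which are members of the score, were -0.27, -0.10, -0.10, -0.20, -0.13 and -0.038.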

Other observations

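Further gene groups had effects called at 8 weeks and no call for the change. Over all genes 0.677% were called lower in Batf3ko at 6 weeks and 4.42% at 8 weeks, with 3 and 6 mice per group. The 8-week effects were the more precise, so that a call at 8 weeks alone does not date an onset. Of 24 genes of the type I interferon response, 0 were called at 6 weeks and 14 were lower in Batf3ko at 8 weeks. Rtp4, a chaperone of receptors, had effects of -0.70 ± 0.28 and -1.55 ± 0.20, and Zbp1, a sensor of nucleic acids, of -1.04 ± 0.38 and -1.87 ± 0.27. Of 15 cytotoxic effector genes 7 were lower at 8 weeks, among them the chemokine Ccl5 (-1.84 ± 0.56 and then -2.92 ± 0.40). Of 12 complement genes 8 were lower at 8 weeks, with C1s1, a protease of the classical pathway, at 0.01 ± 0.46 and then -1.79 ± 0.33 (adjusted p of the change = 0.089). Of 15 fibroblast and stellate cell genes 7 were lower at 8 weeks. Vim, an intermediate filament protein, went from -0.05 ± 0.38 to -1.68 ± 0.27, and the proteoglycan Dcn from 0.37 ± 0.72 to -1.89 ± 0.51 (adjusted p of the change = 0.067 and 0.16).

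The Reg genes, secreted proteins of acinar cells that rise in pancreatic injury, had 0 of 7 called at either age or for the change, although Reg3a had a change of 3.17 ± 1.11 (adjusted p = 0.12). Reg3a read 9.91, 9.87 and 9.84 in the 6-week NOD mice and 7.23, 9.73 and 5.47 in the 6-week Batf3ko mice, so that the Batf3ko mice differed widely from each other. Reg3b, a relative, behaved alike, at 11.58, 11.13 and 11.37 against 9.29, 11.30 and 8.19. Of 12 neutrophil genes 1 was lower at 8 weeks, where 4.42% of all genes were, and of 8 adipocyte genes 0 were called at either age.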
